A study of Mus musculus with 6 samples.

Results

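Of the 31028 gene symbols in the RNA table, 10 genes of secreted liver plasma proteins were followed in embryonic mouse pancreas: Afp, Alb, Apoa1, Apoa2, Ttr, Fgb, Itih2, Serpina1a, Vtn and Gc. They were taken by name from a list, with no threshold on a measured value, but the list was chosen with earlier results of these data known. All 10 are also among the 8269 genes of both ATAC tables. The samples were dissected pancreatic tissue of C57BL/6 embryos, either Ptf1a+/+ (here WT) or Ptf1aenh-delta/enh-delta (here KO), which carry 2 copies of a deletion of an enhancer of Ptf1a, a gene for a transcription factor that the early pancreas needs. The tissue of embryonic day 10.5 (E10.5) is labelled as multipotent pancreatic progenitor cells, and each library pooled 5 to 9 embryos. It was used for single-cell RNA sequencing and, in separate libraries, for single-cell ATAC sequencing, an assay of open chromatin. Pancreas of embryonic day 13.5 (E13.5), pooled from 6 embryos per library, was used for ATAC alone. Each group had 1 library, so no difference has a replicate check, no test was run, and every comparison is between 2 libraries. The 95% intervals cover counting error only.

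The liver secretes these proteins into blood. Its cells and those of the ventral pancreas and bile duct arise from neighbouring foregut endoderm, and the visceral endoderm of the yolk sac makes several of the same proteins before the liver does. The transcription factors HNF1, HNF4 and FOXA act on many of these genes in liver, and the pancreas has factors of the same families. The study's title is about enhancer mutations that cause pancreas agenesis. The comparisons here ask in which cells of the dissected tissue the plasma protein genes were transcribed, whether their levels differed between the WT and KO libraries, and whether their chromatin scores did.

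The promoters of the set are shown first because 6 of the 9 members with a promoter in the RefSeq table hold the same 6 letters. The 250 bases before each start site were searched on both strands for 5 motifs, which were chosen after the promoters had been read. GTTAAT, the core of an HNF1 site, stood in the promoters of Fgb, Gc, Alb, Afp, Vtn and Serpina1a, and in 6.43% of all 32851 promoters. The other motifs were rarer in the set. TGTTTAC, of the FOXA kind, stood in 1 promoter, that of Apoa2 (3.17% of all promoters). The E-box CACCTG stood in those of Apoa2, Apoa1 and Vtn (17.2%), TGGGAA, of the RBPJ kind, in those of Fgb, Gc and Vtn (21.6%), and CAAAGTCCA, of the HNF4 kind, in none (0.384%). A match describes the letters and is no measured binding site. In these 70-base stretches (RefSeq, GRCm38.p6, on the gene's own strand, 5′ to 3′) the capitals mark GTTAAT or its reverse complement ATTAAC.
Fgb, chr3:83049864-83049933, minus strand: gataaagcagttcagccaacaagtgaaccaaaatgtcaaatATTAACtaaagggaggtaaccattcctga
Gc, chr5:89457913-89457982, minus strand: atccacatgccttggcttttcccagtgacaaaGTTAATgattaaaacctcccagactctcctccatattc
Alb, chr5:90460800-90460869, plus strand: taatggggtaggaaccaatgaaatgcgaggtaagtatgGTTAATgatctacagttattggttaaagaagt
Afp, chr5:90490577-90490646, plus strand: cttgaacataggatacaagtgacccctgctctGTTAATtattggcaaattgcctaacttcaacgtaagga
Vtn, chr11:78498976-78499045, plus strand: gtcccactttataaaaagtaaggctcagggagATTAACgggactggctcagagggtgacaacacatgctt
Serpina1a, chr12:103863620-103863689, minus strand: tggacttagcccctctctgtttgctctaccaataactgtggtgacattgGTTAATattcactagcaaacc

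In the Alb, Fgb and Serpina1a promoters the match lay close to the start site, beginning 32, 29 and 21 bases before it, and in Gc it began 52 bases before it. In Afp and Vtn it began 105 and 112 bases before the start. Gc, Alb and Afp lie on chromosome 5 (Gc at 89417511 to 89457898, Alb at 90460870 to 90476602, Afp at 90490714 to 90508907), and Alb and Afp are neighbours, so their chromatin scores need not be independent. The genes that share the letters did not share 1 pattern of expression: in WT, among the named classes, Vtn and Gc were highest in other cells than Afp, Alb, Fgb and Serpina1a.

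The RNA libraries held 4665222 UMIs (WT, 1104 barcodes) and 4360076 UMIs (KO, 815 barcodes), and 451 WT and 369 KO barcodes with at least 1000 detected genes were kept as cells (median 6700 and 9856 UMIs). One barcode sequence occurred in both RNA libraries, 0 in both E10.5 ATAC libraries and 2 in both E13.5 ATAC libraries. Ptf1a had 142 UMIs in the kept WT cells and 0 in the kept KO cells. Cells were grouped without the 10 genes and without other liver genes, and the groups were named from marker lists. Progenitor-like cells (109 WT, 37 KO; with pancreatic progenitor markers as their highest list) were made of 2 clusters, cluster 4 (58 WT, 34 KO) and cluster 8 (51 WT, 3 KO), so that the WT and KO cells of this class came from different mixtures. The Hhex/Sox17-high cells (20 WT, 38 KO) were cluster 5, led by Sox17, Itih2, Paqr9 and Hhex, with hepatobiliary markers as their highest list. The other cells were endocrine-like (66 WT, 137 KO), mesenchyme-like (174 WT, 136 KO) or in cluster 3 (82 WT, 21 KO), which was led by Sox17, cell cycle and histone genes and was left unnamed. The 653 WT and 446 KO barcodes under 1000 genes (median 769 and 720.5 UMIs) were kept apart as a measure of RNA in barcodes too shallow to name. Levels are CPM, a gene's UMIs summed over the cells of a class and scaled to all UMIs of those cells. The highest list of a cluster was read from mean log2 ratios to the other cells, with both libraries together. In summed CPM, the progenitor and hepatobiliary lists stood at 2086 and 1434 CPM in the WT progenitor-like cells. In the KO progenitor-like cells they stood at 2297 and 2764 CPM, so there the hepatobiliary sum was the larger. In the mesenchyme-like cells the endocrine list (3830 CPM WT, 5800 CPM KO) summed to more than the mesenchyme list (1126 and 1412 CPM). The glucagon gene Gcg alone made up 2681 and 4019 CPM of that endocrine sum. This 3′ assay counts 1 tag per transcript, so levels may be set side by side between genes.

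These classes depart from the rule first written. That rule took the coarsest grouping in which the cluster highest in progenitor markers and the cluster highest in Hhex and Sox17 differ. It picked the grouping at resolution 0.3, where the cells high in Hhex were still inside the progenitor-like cluster (128 WT, 74 KO), and the Sox17-led cell cycle cluster (82 WT, 20 KO) was taken as Hhex/Sox17-high by a mean log2 ratio of 1.56 against 1.53. The summed level of the 10 genes was then 1372 CPM in the WT Hhex/Sox17-high cells and 1230 CPM in the WT progenitor-like cells (log2 ratio 0.16), and 1323 and 2226 CPM in the KO cells (log2 ratio -0.75). The finer grouping at resolution 0.6 is used below. It was chosen after the clusters, and the levels of these genes in them, had been seen. The direction of this comparison in the KO cells depends on that choice. Without Ttr the direction in the WT cells does too, with a log2 ratio of -0.40 at resolution 0.3 and 1.15 in the classes used below.

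In the finer grouping the summed level was higher in the Hhex/Sox17-high cells than in the progenitor-like cells of both libraries. It was 3068 CPM (95% interval 2850 to 3298) against 940 CPM (890 to 991) in WT, a log2 ratio of 1.70. In KO it was 3246 CPM (3103 to 3395) against 1281 CPM (1193 to 1373), a log2 ratio of 1.34. Without Ttr, the most abundant member, the log2 ratios were 1.15 and 1.29. Of the 8 members with at least 50 UMIs in the 2 WT classes together, 6 were past 2-fold higher in the Hhex/Sox17-high cells (Afp, Apoa2, Ttr, Fgb, Itih2 and Serpina1a) and 0 past 2-fold lower, where 1.32% of all 4846 genes were past 2-fold higher and 3.14% lower. Of the 7 such members in KO, 4 were past 2-fold higher (Afp, Apoa2, Ttr and Itih2), where 0.71% of 4223 genes were. Among the called members, Itih2 (50 and 23 UMIs in WT, 187 and 40 in KO) and, in KO, Apoa2 (89 and 12) reached 50 UMIs only through the Hhex/Sox17-high cells. In the WT Hhex/Sox17-high cells, 11 of the 20 Apoa2 UMIs and 7 of the 19 Fgb UMIs came from 1 cell each. Whether the WT calls of these genes hold without such a cell was not tested. The median log2 ratio of the compared members was 1.58 in WT and 1.37 in KO, beside -0.02 and -0.04 for all genes counted. Both the genes and the classes were chosen with results of these data known, so these counts and medians are descriptions.

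**Figure D1:**
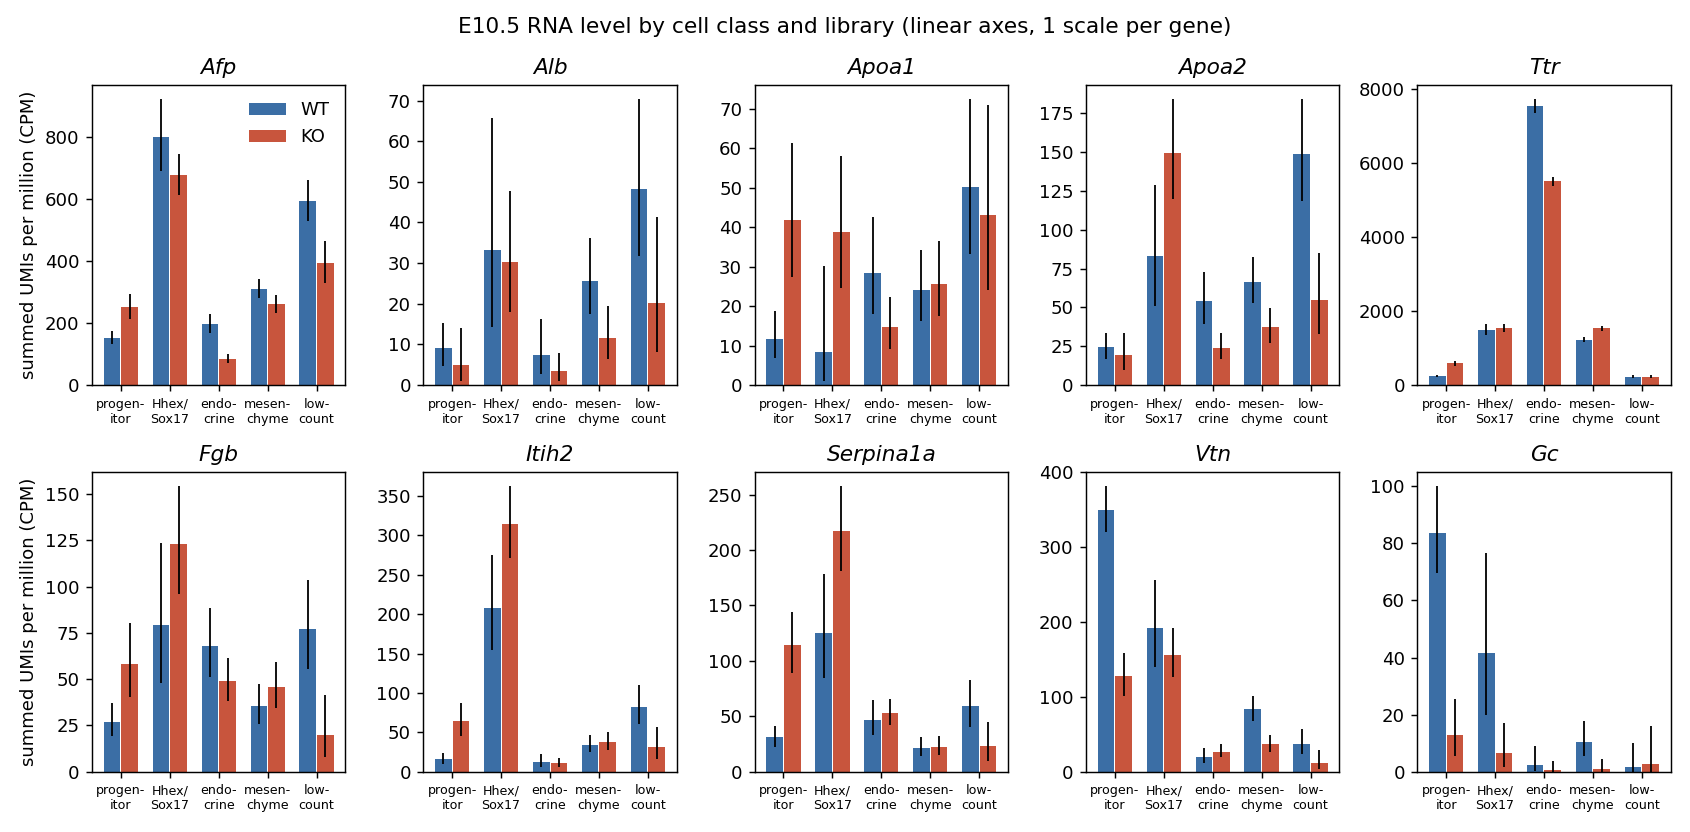
RNA levels of the 10 genes at E10.5, 1 panel per gene, each with its own linear axis in CPM. Bars are the summed UMIs of a class in the WT (blue) or KO (red) library and lines are 95% Poisson intervals. The tallest bars of Afp, Apoa2, Fgb, Itih2 and Serpina1a are in the Hhex/Sox17-high cells, that of Ttr in the endocrine-like cells, and those of Vtn and Gc in the WT progenitor-like cells, while the low-count barcodes (right-hand bars) hold the tallest bars of Alb and Apoa1.

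The albumin family members are carriers of ligands in plasma. Afp, the fetal counterpart of albumin, stood at 800 CPM in the WT and 676 CPM in the KO Hhex/Sox17-high cells. It stood at 152 CPM (133 to 174) in the WT and 251 CPM (213 to 294) in the KO progenitor-like cells. The high class was thus at least 2-fold above the progenitor-like cells in each library. Afp was also detected in mesenchyme-like cells (310 CPM WT, 260 CPM KO) and in the low-count barcodes (593 CPM WT, 393 CPM KO).

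Alb, albumin itself, was scarce everywhere, with 62 UMIs in all kept WT cells and 42 in all kept KO cells. It stood at 33.3 CPM (14.4 to 65.7) in the WT and 30.3 CPM (17.9 to 47.8) in the KO Hhex/Sox17-high cells, and at 9.00 and 4.83 CPM in the progenitor-like cells, the latter from 3 UMIs. The low-count barcodes held 48.3 CPM in WT and 20.1 CPM in KO. The Hhex/Sox17-high level was thus under that of the low-count barcodes in WT and above it in KO, with overlapping intervals in both.

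Gc, the vitamin D-binding protein, had the opposite distribution. It stood at 83.7 CPM in the WT progenitor-like cells, from 121 UMIs, at 41.7 CPM in the WT Hhex/Sox17-high cells and at 2.47 CPM in the WT endocrine-like cells. In KO it stood at 12.9 CPM in the progenitor-like cells, from 8 UMIs, and at 6.72 CPM in the Hhex/Sox17-high cells, from 4. The low-count barcodes held 1.79 CPM in WT and 2.87 CPM in KO, 1 UMI each, far under the WT progenitor-like level. All 369 kept KO cells together held 14 Gc UMIs, and the 451 kept WT cells 157.

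Ttr, transthyretin, which carries thyroid hormone and the retinol-binding protein, was the most abundant member and followed a pattern of its own. It stood at 7533 CPM in the WT and 5509.5 CPM in the KO endocrine-like cells, and was highest in cluster 9, which was led by Ghrl, Cartpt, Ins1 and Ins2 (11234 CPM in 12 WT cells, 8429 CPM in 29 KO cells). It stood at 1496 CPM (1346 to 1660) in the WT and 1535 CPM (1437 to 1638) in the KO Hhex/Sox17-high cells, and at 235 and 586 CPM in the progenitor-like cells. Transthyretin is a known product of pancreatic islet cells. In the mesenchyme-like cells it stood at 1230 and 1528 CPM, most of it in cluster 6 (3389 and 2615 CPM). Glucagon RNA (Gcg) stood at 2681 and 4019 CPM in the same mesenchyme-like cells, beside 27246 and 18335 CPM in the endocrine-like ones, and its part in the Ttr level there was not tested.

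Apoa1 and Apoa2 encode the main proteins of high-density lipoprotein. Apoa2 stood at 83.4 CPM (50.9 to 129) in the WT and 150 CPM (120 to 184) in the KO Hhex/Sox17-high cells, against 24.2 and 19.3 CPM in the progenitor-like cells. Apoa1 stood at 8.34 CPM, from 2 UMIs, and 38.7 CPM in the Hhex/Sox17-high cells and at 11.8 and 41.9 CPM in the progenitor-like cells. Of the 26 Apoa1 UMIs of the KO progenitor-like cells, 19 came from 1 cell, which was called a doublet. Without the called doublets Apoa1 stood at 11.8 CPM in KO and 11.9 CPM in WT. The low-count barcodes held 50.1 and 43.1 CPM of Apoa1 and 149 and 54.6 CPM of Apoa2, so neither gene in WT stood above them in any of these classes.

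Fgb encodes the beta chain of fibrinogen, the clot protein. It stood at 79.2 CPM in the WT and 123 CPM in the KO Hhex/Sox17-high cells, and at 27.0 and 58.0 CPM in the progenitor-like cells. The endocrine-like cells held 67.9 and 48.9 CPM, within the range of the other classes, and the low-count barcodes 77.0 and 20.1 CPM. Fibrinogen needs an alpha and a gamma chain too. Fgg, the gamma chain gene, stood at 29.1 CPM in the WT and 30.6 CPM in the KO progenitor-like cells, and at 41.7 and 53.8 CPM in the Hhex/Sox17-high cells. Fga, the alpha chain gene, was near the limit of detection, with 2 UMIs in the WT and 0 in the KO progenitor-like cells and 1 and 2 UMIs in the Hhex/Sox17-high cells.

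Itih2, a heavy chain of the inter-alpha-trypsin inhibitor, had the largest ratio between the 2 classes in WT, and stood among the leading genes of cluster 5 although it was left out of the clustering. In KO Apoa2 had the largest ratio. Itih2 stood at 208 CPM (155 to 275) in the WT and 314 CPM (271 to 363) in the KO Hhex/Sox17-high cells, against 15.9 CPM (10.1 to 23.9) and 64.4 CPM (46.0 to 87.7) in the progenitor-like cells. The ratio of the 2 classes was 13.1 (7.84 to 22.5) in WT and 4.88 (3.45 to 7.05) in KO. An Itih2 UMI was found in 14 of the 20 WT and 32 of the 38 KO Hhex/Sox17-high cells, and in 6 of 15 and 16 of 37 of those that could be thinned to 2000 UMIs each. The endocrine-like cells, at 12.4 and 10.7 CPM, lay under the low-count barcodes (82.3 and 31.6 CPM).

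Serpina1a encodes a form of alpha-1 antitrypsin, the inhibitor of neutrophil elastase. It belongs to a family of near-identical mouse genes, so its counts are uncertain where reads cannot be told from those of the other copies. It stood at 125 CPM (84.4 to 179) in the WT and 217 CPM (181 to 258) in the KO Hhex/Sox17-high cells, and at 31.1 and 114 CPM in the progenitor-like cells. The related Serpina1b stood at 149 CPM in the WT and 179 CPM in the KO progenitor-like cells, and at 95.9 and 250 CPM in the Hhex/Sox17-high cells.

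Vtn encodes vitronectin, an adhesive protein of plasma and matrix. It stood at 349 CPM (320 to 381) in the WT progenitor-like cells, its highest level, and at 192 CPM (140 to 256) in the WT Hhex/Sox17-high cells. In KO it stood at 127 CPM (101 to 159) and 156 CPM (126 to 192). The endocrine-like cells held 19.8 and 26.8 CPM and the low-count barcodes 37.6 and 11.5 CPM. Vtn made up 49.6% of the 1018 UMIs of the 9 members without Ttr in the WT progenitor-like cells, and Afp 50.9% of the 377 such UMIs in the WT Hhex/Sox17-high cells. In the KO libraries Afp was the most abundant of the 9 in both classes, at 36.2% of 431 UMIs and 39.5% of 1018.

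**Figure D2:**
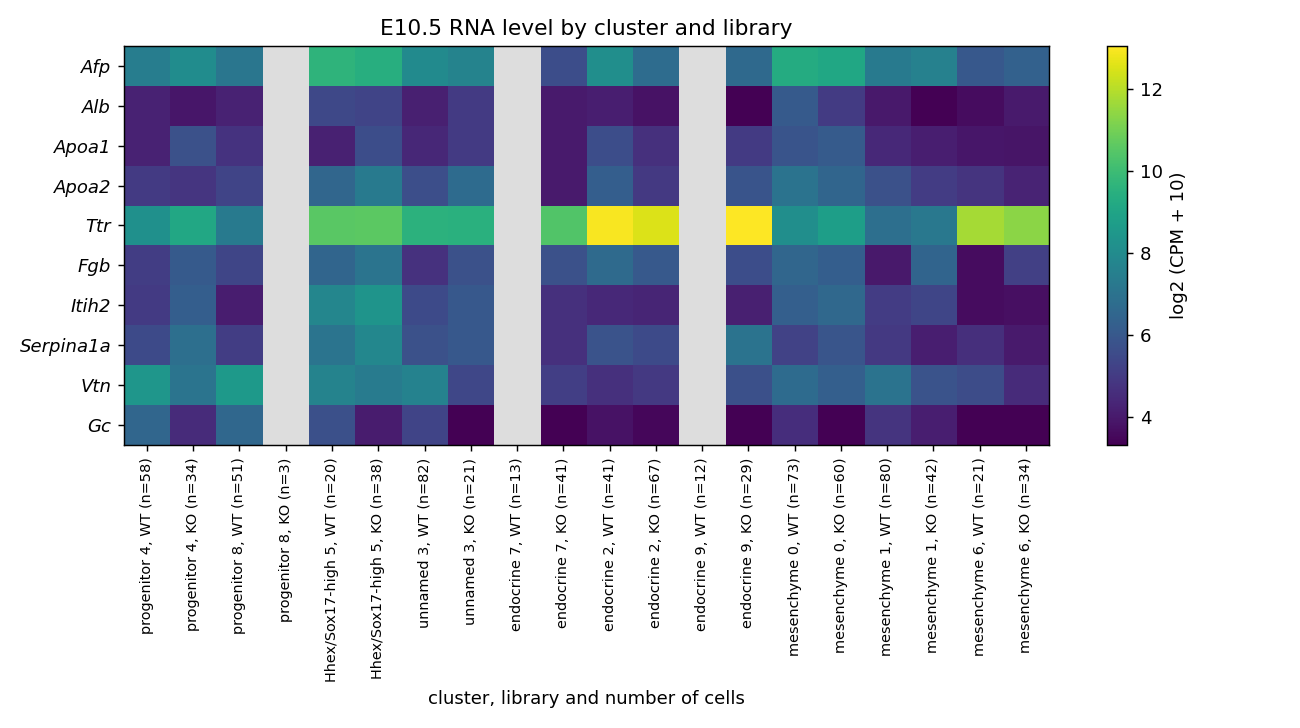
Heat map of RNA level, log2 (CPM + 10), of the 10 genes (rows) in each of the 10 clusters split by library (columns, with the number of cells). Columns with under 15 cells are left blank (grey). Afp is bright in cluster 5 and again in mesenchyme-like cluster 0 (626 CPM WT, 542 CPM KO), Ttr in the endocrine-like clusters, and and in mesenchyme-like cluster 6, and Vtn and Gc in the WT columns of clusters 4 and 8.

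Across the 17 cluster-by-library sums of at least 15 cells, the members fell into groups by the likeness of their levels. These correlations are descriptions: the points share libraries, depth and free RNA. Afp was most like Itih2 among the members (r = 0.87), then Apoa2 (0.82) and Alb (0.77). Vtn was most like Gc (r = 0.89), and its nearest gene outside the set was Wfdc2 (0.895). Ttr ran against Vtn (r = -0.60) and Gc (-0.55). The 8 genes most like the sum of all 10, which Ttr dominates, were Atp6v1h (r = 0.92), Ppp1r1a, Vkorc1, Gpx3, Lyplal1, Ofd1, Nbdy and Aga (0.86). Without Ttr the genes most like the sum began with Paqr9 (r = 0.84) and Dlk1 (0.83), both in the hepatobiliary marker list used to name clusters.

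Between genotypes, the progenitor-like cells showed members that differed in both directions. Of 7 members with at least 50 UMIs, 3 were past 2-fold higher in KO (Ttr, Itih2 and Serpina1a) and 2 past 2-fold lower (Vtn and Gc), on log2 of CPM plus 10, where 3.27% of 5758 genes were past 2-fold in either direction (2.1% higher, 1.16% lower). Serpina1a had 71 UMIs in KO and 45 in WT, and the ratio of its levels was 3.67 (2.49 to 5.46). For Itih2, with 40 and 23 UMIs, the ratio was 4.05 (2.37 to 7.08), and for Ttr, with 364 and 340 UMIs, it was 2.49 (2.14 to 2.90). Vtn had 79 UMIs in KO and 505 in WT, a ratio of 0.364 (0.284 to 0.462). Gc had 8 and 121 UMIs, a ratio of 0.154 (0.0650 to 0.313). Serpina1a reached 50 UMIs only through the KO cells, and Gc only through the WT cells. In the WT progenitor-like cells, Itih2 (15.9 CPM) and Serpina1a (31.1 CPM) stood under the WT low-count barcodes (82.3 and 59.1 CPM). Ttr stood near them (235 against 229 CPM). In KO all 3 stood above the KO low-count barcodes, and Vtn and Gc stood above those of WT in the WT cells. The part of free RNA in the WT levels of Ttr, Itih2 and Serpina1a was not tested. Afp and Fgb stood higher in KO but did not pass 2-fold (log2 ratios 0.69 and 0.88). Alb, Apoa1 and Apoa2 had under 50 UMIs. The median of all genes was 0.17 on this scale, and with the 2 sums scaled by the median of their gene ratios all 5 called members stayed past 2-fold, from 1.09 for Ttr to 1.41 for Serpina1a and -1.57 for Vtn and -2.13 for Gc.

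The 2 progenitor-like clusters were also compared 1 by 1, because the KO cells came almost wholly from cluster 4. Within cluster 4 alone, Vtn stood at 332 CPM in WT and 123 CPM in KO, and Gc at 83.4 and 13.2 CPM. Ttr stood at 288 and 554 CPM, Itih2 at 21.1 and 65.8 CPM and Serpina1a at 35.6 and 107 CPM. Vtn, Gc, Itih2 and Serpina1a were past 2-fold within this cluster (log2 ratios -1.36, -2.01, 1.28 and 1.36), and Ttr was not (0.92). The share of all genes past 2-fold within cluster 4 was not counted, so these calls have no background beside them. In the 51 WT cells of cluster 8, Vtn stood at 378 CPM and Gc at 84.3 CPM, close to the WT cells of cluster 4.

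The members higher in KO depended on where the border of the class was drawn, while Vtn and Gc stayed past 2-fold lower. When the 10 genes and the other liver genes were kept among the genes used for clustering, 16 of the 37 KO and 106 of the 109 WT cells stayed progenitor-like, and the KO Hhex/Sox17-high class grew from 38 to 59 cells. The KO over WT log2 ratio in the progenitor-like cells was then 0.30 for Serpina1a, 0.27 for Ttr and -0.27 for Itih2, none past 2-fold. It was -2.08 for Vtn and -2.20 for Gc. Clustering on the measured genes sorts cells by the levels compared, so these values describe another set of cells. Hhex, which was also left out of the clustering, stood at 40.1 CPM in the WT and 151 CPM in the KO progenitor-like cells, while Sox17 had 2 and 0 UMIs there.

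Within the Hhex/Sox17-high cells 0 of 7 members passed 2-fold between genotypes, where 2.19% of 2873 genes did. Itih2 and Serpina1a stood higher in KO by ratios of 1.51 (1.10 to 2.10) and 1.73 (1.16 to 2.67), and Ttr was near equal, at 1.03 (0.907 to 1.16). Vtn stood at 0.815 of WT (0.567 to 1.19). Gc, with 4 and 10 UMIs, stood at 0.161 of WT (0.0369 to 0.559), in the same direction as in the progenitor-like cells. When both classes were joined, 8 of 9 members passed 2-fold, 6 higher (Apoa1, Apoa2, Ttr, Fgb, Itih2 and Serpina1a) and 2 lower (Vtn and Gc), where 1.96% of 7003 genes did (1.26% higher, 0.7% lower). Without called doublets the log2 ratio of Apoa1 was 0.72, no longer past 2-fold. The joined class held 20 Hhex/Sox17-high cells of 129 in WT and 38 of 75 in KO, so a joined level also reflects this mixture. The classes of the rule first written gave 8 members past 2-fold in the progenitor-like cells (2.0% of 6987 genes), where these 2 kinds of cell were together. They gave 1, Vtn, in the Hhex/Sox17-high cells (4.16% of 1299 genes), 8 in both together (1.98% of 7287 genes) and 0 in the other cells (0.393% of 9166 genes).

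**Figure D3:**
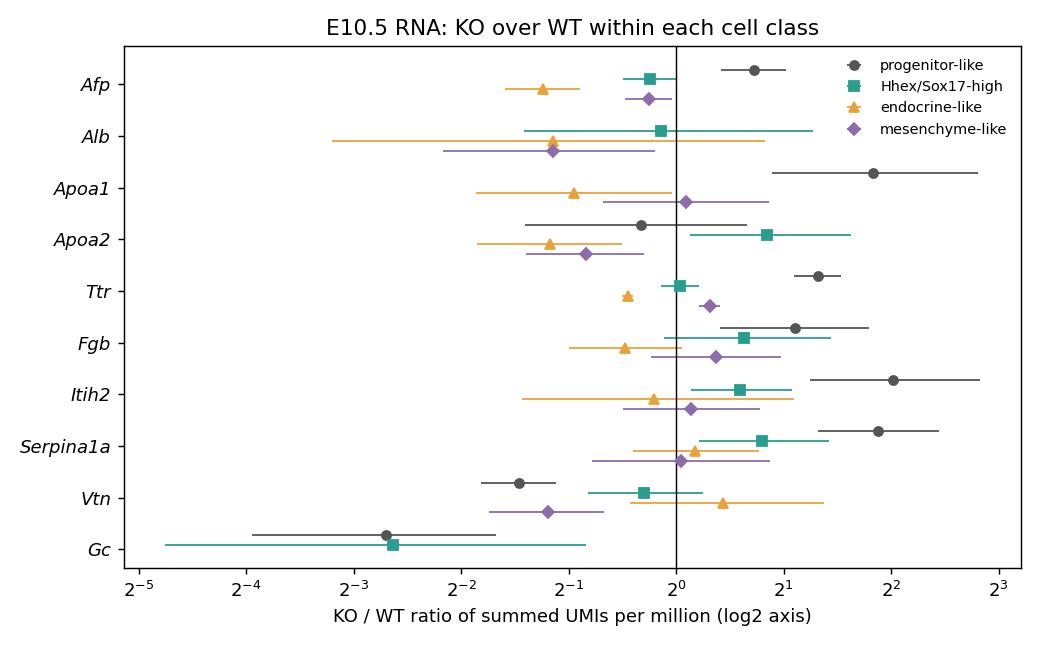
Ratio of RNA level in KO over WT for each of the 10 genes (rows) on a log2 axis, within 4 cell classes (symbols), with 95% conditional intervals of counting error. Genes with 3 or fewer UMIs in either library are left out of a class. Vtn and Gc lie left of 1 in the progenitor-like cells (ratios 0.364 and 0.154), whereas Itih2 and Serpina1a lie right of it (4.05 and 3.67).

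Outside these 2 classes few members were past 2-fold between genotypes. Gc had too few UMIs to be called there, but stood at 0.715 CPM in KO (0.0866 to 2.58) and 10.7 CPM in WT (7.01 to 15.7) over all kept cells outside them, from 2 and 26 UMIs. In the endocrine-like cells 1 of 6 members passed 2-fold (0.548% of 6566 genes), Afp, at 83.6 CPM in KO and 198 CPM in WT. Of the 160 Afp UMIs of the WT endocrine-like cells, 42 came from 1 cell, and the call without that cell was not tested. In the mesenchyme-like cells 1 of 8 passed (0.561% of 6949 genes), Vtn, at 36.4 CPM in KO and 83.4 CPM in WT. In cluster 3 it was again Vtn, 1 of 3 (4.18% of 1317 genes), with 3 UMIs in KO and 68 in WT, so it was compared only through the WT cells. Over all kept cells 2 of 10 passed (0.627% of 10367 genes): Vtn stood at 64.6 CPM in KO and 180 CPM in WT, and Gc at 3.49 and 38.2 CPM. Afp, by contrast, stood at 253 CPM in KO and 255 CPM in WT over all kept cells.

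The low-count barcodes may hold free RNA or small or damaged cells, which the data do not separate. In WT the mesenchyme-like cells stood under the low-count barcodes for 7 of 9 members with at least 50 UMIs, with a median log2 ratio of -0.91 beside -0.02 for all 5667 genes, and in KO for 2 of 5. The members in WT mesenchyme-like cells that stood above were Ttr and Vtn. The low-count barcodes also held mesenchyme markers (8 genes summing to 1131 CPM in WT and 1427 CPM in KO) and endothelial ones (6 genes, 220 and 201 CPM), more than the progenitor-like cells did (203 and 238 CPM, and 7.61 and 4.83 CPM). The part of free RNA in the levels of Afp, Alb, Apoa1 and Apoa2 in other cells was not tested. In the thinned cells, an Afp UMI was found in 9 of 15 WT and 27 of 37 KO Hhex/Sox17-high cells. It was found in 20.6% of the WT progenitor-like cells and in 40.5% of the WT mesenchyme-like cells. The last share is above that of the progenitor-like cells, so no expression of Afp in the WT progenitor-like cells is read from these shares. Among the mesenchyme-like clusters Afp was uneven, at 626, 146 and 54.7 CPM in the WT cells of clusters 0, 1 and 6.

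Other genes of the liver programme were counted from fixed lists. Over all 5758 genes compared in the progenitor-like cells, 2.1% were past 2-fold higher in KO and 1.16% lower, and the median log2 ratio was 0.17. Of 25 other plasma protein genes, 9 had at least 50 UMIs in the progenitor-like cells. Of these, 3 were past 2-fold higher in KO (Apom, Rbp4 and Apoe) and 0 lower, with a median log2 ratio of 0.62. Rbp4, the retinol carrier that binds transthyretin in plasma, stood at 1886 CPM in KO and 815 CPM in WT. Apom, an apolipoprotein, had the largest log2 ratio of the list (1.56) and Apoc1 the smallest (-0.75). Of 14 liver regulators, 8 had enough UMIs and 3 were past 2-fold higher in KO: Onecut2 (log2 ratio 2.53), Hhex (1.69) and Foxa1 (1.67). The lowest was Prox1 (-0.55). Of 11 hepatocyte enzymes, 1 had enough UMIs, Arg1 (0.09), and Cps1, G6pc and Cyp3a11 had 0 UMIs in the progenitor-like and Hhex/Sox17-high cells of both libraries. The visceral endoderm list (4 genes) summed to 9.69 and 3.22 CPM in the WT and KO progenitor-like cells and to 4.17 and 15.1 CPM in the Hhex/Sox17-high cells, with Amn at 0 in all 4.

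Between classes Rbp4 went the way of Vtn and Gc in WT rather than that of the other compared members. It stood at 192 CPM in the WT Hhex/Sox17-high cells, under the progenitor-like cells (log2 ratio -2.03), and likewise in KO (551 CPM, log2 ratio -1.76). In both libraries it was the lowest of the 7 other plasma protein genes that could be compared. Serpinf2, the inhibitor of plasmin, was the highest of them in both (log2 ratios 1.43 and 0.91). The list had a median log2 ratio of 0.40 in WT and 0.46 in KO, smaller than the 1.58 and 1.37 of the members. Of the 7, 1 was past 2-fold higher and 1 lower in WT, and 0 and 1 in KO. The liver regulators, with Hhex highest, had a median of 0.25 in WT, with 2 of 7 past 2-fold higher and 0 lower. In KO it was -0.33, with 1 of 8 higher and 2 lower (lowest Foxa1, -1.26). Arg1, the 1 hepatocyte enzyme compared, was lower in both (-1.86 and -2.69). Over all genes, 1.32% of 4846 were past 2-fold higher and 3.14% lower in WT, and 0.71% and 2.08% of 4223 in KO.

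Among the WT progenitor-like cells, 63 had a Ptf1a UMI and 46 had none (median 14101 and 10967 UMIs). Vtn stood at 358 CPM (321 to 398) in the former and 333 CPM (285 to 388) in the latter, and Gc at 73.1 CPM (56.8 to 92.5) and 104 CPM (77.5 to 136). The intervals overlap for both genes. Afp stood at 183 CPM (157 to 213) with and 93.8 CPM (69.0 to 125) without a Ptf1a UMI, and 58 of the 220 Afp UMIs of the class came from 1 cell. A cell with no Ptf1a UMI may still express the gene, since the depth per cell is limited.

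Chromatin at the members was read from a gene score that sums to 10000 in each cell over 8269 genes. At E10.5 no member differed by 1.5-fold between KO (700 cells) and WT (838 cells), where 0.256% of 8219 genes did. Vtn had a mean score of 2.62 in WT and 2.78 in KO, the highest of the set, and stood at the 95.4th and 96.3th percentile of all genes. Gc had the largest difference, 0.535 in WT and 0.398 in KO (log2 ratio -0.43), and Apoa2 and Serpina1a followed at -0.27 each. Afp was nearly equal, at 0.553 and 0.555. Gc also had the largest RNA ratio between genotypes in the progenitor-like cells, whereas the score of Vtn, lower in KO by RNA, was no lower here. That RNA ratio is of 1 class and the score is of all cells, so they are unlike measures. Among the E10.5 ATAC clusters the Gc log2 ratio was uneven, at -0.18 in cluster 0, -0.97 in cluster 1 and 0.13 in cluster 2. In cluster 1 12.9% of all genes were past 1.5-fold. By share of cells above 0 the log2 ratio of Gc over all cells was -0.017. The Hhex/Sox17-high cells could not be told apart among these clusters, so their scores are part of the whole.

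**Figure D4:**
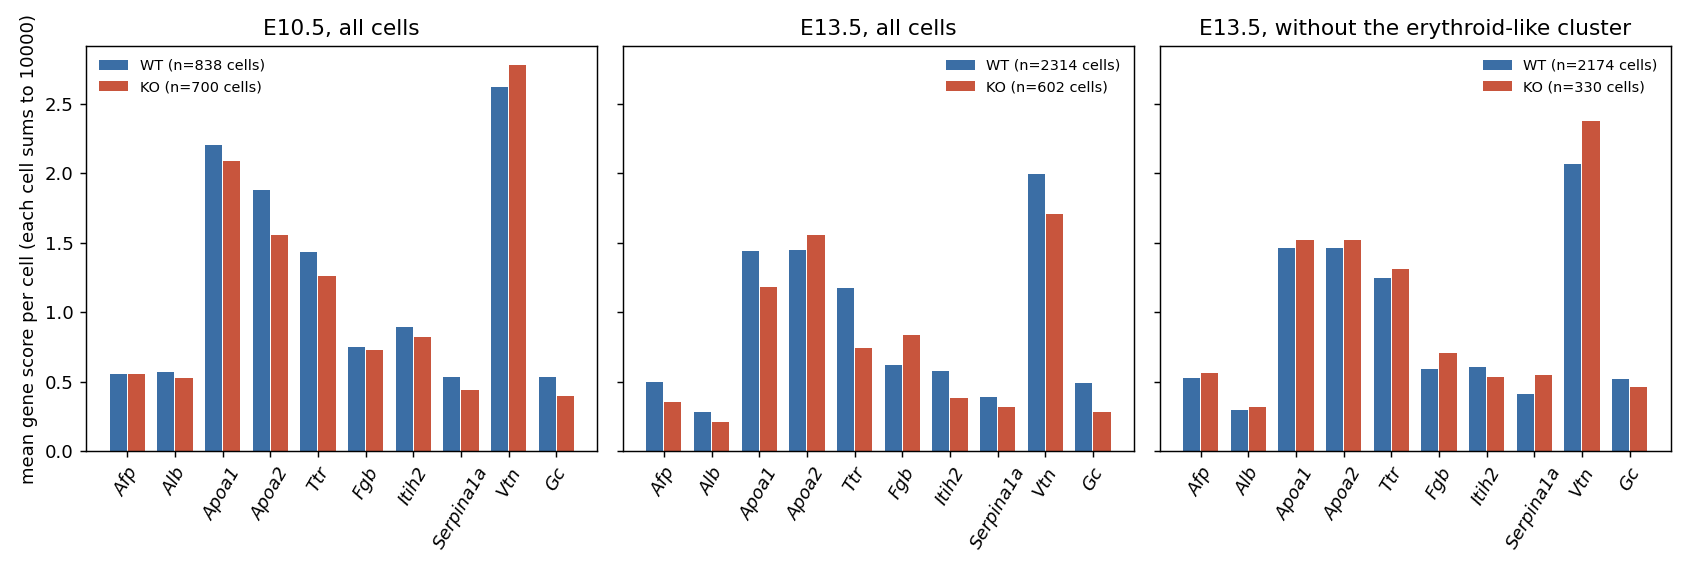
Mean gene score per cell of the 10 genes in the WT (blue) and KO (red) ATAC libraries, at E10.5 in all cells, at E13.5 in all cells and at E13.5 without the erythroid-like cluster. The 2 stages are separate tables. Ttr, Itih2 and Gc are lower in KO at E13.5 over all cells (log2 ratios -0.66, -0.61 and -0.79), and 0 members differ by 1.5-fold without the erythroid-like cluster.

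At E13.5 3 of the 10 members were past 1.5-fold lower in KO (602 cells) than in WT (2314 cells) and 0 higher. Of 8208 genes, 18.7% were past 1.5-fold in either direction and 11.9% lower. The count of members is small, and its difference from these shares was not tested. Ttr had a mean score of 1.18 in WT and 0.742 in KO, Itih2 0.581 and 0.381, and Gc 0.495 and 0.286. A cluster led by Slc4a1, Gypc and Tal1, genes of red blood cells, held 6.05% of the WT and 45.2% of the KO cells. In it the score of Ttr was 0.0548 in WT and 0.0518 in KO, and that of Gc 0.0758 and 0.0677. Without that cluster 0 members passed 1.5-fold (2.05% of 8227 genes), and the log2 ratios were 0.07 for Ttr, -0.19 for Itih2 and -0.16 for Gc. The barcodes of the E13.5 libraries name different months for WT and KO, and the effects of month and of genotype cannot be told apart.

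Ranks within each table were set side by side for the 2 stages. Vtn stood at the 95.4th percentile of WT scores at E10.5 and the 88.8th at E13.5, and Apoa1 at the 91.8th and 73.8th. Alb stood at the 12.0th and 2.14th percentile and Gc at the 10.1th and 8.32th. The order of the members in WT was similar at both stages, with Vtn, Apoa1, Apoa2 and Ttr above the other 6. The score is made per gene region and rests partly on gene length and neighbours, so a low rank of Alb or Gc beside Vtn says nothing of their relative activity.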

How the data were processed

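RNA was measured in 2 and chromatin accessibility in 4 libraries, 1 per genotype, assay and stage. The deposited RNA table holds UMI counts per gene and cell, and the deposited ATAC tables hold a gene score, a signal that is never negative and sums to 10000 per cell; depth in fragments is unknown. The libraries were made with 10x Genomics kits, per the labels' protocols, and mm10 is named, per the submitters' processing notes. Which aligner, counter and score tool the authors used is not stated in the labels read here. There were 0 columns of other samples.

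Cells with at least 1000 genes were kept and clustered with scanpy 1.11.5 and leidenalg 0.10.2 (2000 variable genes, 30 components, 15 neighbours) without the 10 genes, tip genes and liver lists. Doublets were called with scrublet (4 WT, 7 KO) and kept. RNA clusters were named at a mean log2 marker ratio of at least 0.3 and ATAC clusters at 0.5. The members and lists were chosen with earlier results of these data known. The written rule chose resolution 0.3 of 6 examined. The text uses 0.6, the first at which the cluster highest in Hhex and Sox17 had the hepatobiliary list highest and no other list above 0.5, a rule set after the clusters and the members' levels had been seen, as were the naming thresholds and the 5 motifs.

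Levels are CPM with exact Poisson intervals, shares have exact Clopper-Pearson and ratios exact conditional intervals, all at 95% and for counting error only. Log2 ratios use a pseudocount of 10 CPM, which understates low genes, and are called at 2-fold with at least 50 UMIs. This minimum is on both sides together, so a gene can reach it through the side where it is high. ATAC log2 ratios of mean scores are called at 1.5-fold for genes above 0 in at least 10% of cells. Genes named are the 10, Ptf1a, Hhex, Sox17, the 8 genes most alike and the highest and lowest of each list; Paqr9, Dlk1, Wfdc2, Gcg, Fga, Fgg, Rbp4, Apoe, Foxa1, Serpina1b and enzymes at 0 were named after their values were seen. The calculations were tested on simulated data. No promoter was printed for Ttr.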

Additional observations from a re-analysis of the deposited data

Results flagged for a closer look

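Ttr and Itih2 differed between KO and WT in opposite directions, each past 1.5-fold, in 2 clusters of the E13.5 ATAC libraries; the difference between clusters was not tested. The KO over WT log2 ratio of Ttr was -2.25 in cluster 1 (unnamed, 808 WT and 48 KO cells) and 0.95 in the endocrine-like cluster 2 (374 WT and 49 KO cells). That of Itih2 was -0.81 in cluster 1 and 0.82 in cluster 2. In cluster 1 each gene was above 0 in 4 of the 48 KO cells (197 and 133 of the 808 WT cells for Ttr and Itih2), so that both entered the comparison only through the WT cells. In these clusters 39.4% and 14% of all genes were past 1.5-fold, and cluster 1 had the fewest genes above 0 per cell (median 1857.5).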

How the results depend on the processing

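No paired analysis was possible because each group had 1 library, and no replicate could be left out. The number of cells (20 WT and 38 KO Hhex/Sox17-high, 37 KO progenitor-like) and of UMIs limits Alb, Apoa1 and Gc most. Summed levels and counts of members in RNA are set here against those of the rule first written (resolution 0.3), and single genes in RNA against those of the classes of the text. Of the counts and summed levels, 61 stayed within 1.5 times the count or within the counting interval, some with a changed count, and 58 did not. Of 760 values for single genes 74 had the other sign, 50 of them in ATAC, 11 of these 74 for a gene past the fold threshold; the cause was not tested. The classes used in the text and the sums without Ttr were chosen after seeing the data, as was the repeat of each setting for single genes.

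The summed level, Hhex/Sox17-high over progenitor-like (log2, 0.16 WT and -0.75 KO), was 1.24 and 1.24 at resolution 0.5, 1.62 and 1.38 at 0.6, 0.8 and 1.0, 1.57 and 2.03 with members and liver genes kept in the clustering, 1.13 and 0.91 with classes from a cell's own Hhex or Sox17 UMIs, 1.70 and 1.34 with the classes of the text (1.15 and 1.29 without Ttr), and -0.40 and -1.09 without Ttr. It was 0.45 in WT with median-of-ratios scaling and -1.17 in KO with cells thinned to 2000 UMIs.

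Members past 2-fold between KO and WT in progenitor-like cells (8) numbered 5 at resolution 0.5, 4 at 0.6, 0.8 and 1.0, 2 with members kept, 3 thinned, 4 with a pseudocount of 50 and 5 with the classes of the text. In Hhex/Sox17-high cells (1) they numbered 2 at resolution 0.5 and with at least 20 UMIs, 4 with own-UMI classes, and 0 at 0.6, 0.8 and 1.0, with members kept, thinned, with at least 100 UMIs, with at least 2000 genes and with the classes of the text. In both together (8) they numbered 1 thinned and 4 with a pseudocount of 50. In other cells (0) they numbered 2 at resolutions 0.6, 0.8 and 1.0, and 1 at 0.5, with members kept, thinned, with a pseudocount of 1 and with the classes of the text. In all kept cells (2) they numbered 4 with a pseudocount of 1 and 1 with a pseudocount of 50.

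In ATAC, members past 1.5-fold numbered 3 in cluster 1 at E10.5 (0 over all cells), where 12.9% of all genes were past it. At E13.5 (3 over all cells) they numbered 6 without the lowest and highest 10% of genes above 0, 1 by share of cells, 0, 5 and 1 in clusters 0, 1 and 3 (1.76%, 39.4% and 10.4% of all genes), and 0 without the erythroid-like cluster. At E13.5 each of the 10 members had the other sign in at least 1 setting. Of those past 1.5-fold over all cells, these were Ttr (0.19 in cluster 0, 0.95 in cluster 2, 0.071 without the erythroid-like cluster), Itih2 (0.25 by share of cells, 0.82 in cluster 2, 0.26 in cluster 3) and Gc (0.39 in cluster 2). In RNA, KO over WT in progenitor-like cells had the other sign for Apoa1 (-0.10 with members kept, -0.0057 without called doublets), Itih2 (-0.27) and Afp (-0.16), both with members kept, and for Apoa2 (0.02 thinned, 0.36 with own-UMI classes). Apoa2 over the 2 classes in WT was -0.71 with own-UMI classes.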
